A study of Mus musculus with 20 samples.

Results

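The expression of 36 apoptosis genes was followed in the abdominal aorta of 20 mice, with 5 mice in each of 4 groups. The genes were named by symbol, and all 36 were found among the 43422 Ensembl genes that the authors list with an FPKM (fragments counted on a gene, scaled to its length and to the size of the library) in every mouse. By known role, 21 promote apoptosis, 7 oppose it, and 8 are TNF receptors, RIPK1 or p53 and stress genes that were put on neither side. The mice were WT or *Plod1*-/- mice on the C57BL/6 strain (C57Bl/6NCrl in the methods of the study) that received saline or Ang II (1000 ng/kg per minute) from osmotic pumps under the skin, and their aortas were taken on day 14. The labels give all mice an age of 6 months, and the methods of the study a lower one. *Plod1* encodes lysyl hydroxylase 1 (LH1), an enzyme that modifies collagen, and it was deleted in every cell of the *Plod1*-/- mice, so neither smooth muscle nor any other cell type was targeted alone. The study proposes that smooth muscle cells undergo apoptosis in this model of dissecting abdominal aortic aneurysm, and the RNA of the apoptosis genes bears on that question only at the level of transcripts of the whole vessel wall.

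Apoptosis is started from within the cell or from its surface. In the intrinsic pathway, BH3-only proteins such as BIM, PUMA and NOXA bind the survival proteins BCL2, BCL-XL and MCL1 and release the effectors BAX and BAK, which open the outer mitochondrial membrane. Cytochrome c then leaves the mitochondria and joins APAF1 in the apoptosome, where caspase 9 is activated. In the extrinsic pathway, death receptors such as FAS recruit adaptors and caspase 8, and IAP proteins and FLIP restrain the caspases. Much of this control acts on protein binding and cleavage, so transcript levels alone do not measure cell death.

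Some facts of the libraries touch the results. *Plod1* lay between 22.8 and 29.7 FPKM in the WT mice and reached 0.0415 FPKM at most in the *Plod1*-/- mice. *Xist*, the RNA of the inactive X chromosome, reached 15.1 FPKM in replicate 5 of the saline-treated *Plod1*-/- group and 7.93 FPKM in replicate 1 of the Ang II-treated one, with 0.0328 FPKM as the highest value of the others, although the study describes male mice. Smooth muscle markers (*Myh11*, *Acta2*, *Cnn1*, *Tagln*, *Smtn* and *Lmod1*) were high in every library, with a summed level of at least 2297 FPKM. Ang II-treated *Plod1*-/- replicate 1 stood apart from its group. Its smooth muscle sum was 16760.5 FPKM, against 2297 to 6161 FPKM in the other 4, and its macrophage sum (*Cd68*, *Adgre1*, *Csf1r*, *Cd14*, *Fcgr1* and *Mrc1*) was 137 FPKM, against 398 to 817 FPKM. Ang II-treated WT replicate 4 kept a smooth muscle sum of 17037 FPKM, within the saline range, and Ang II-treated WT replicate 1 had a macrophage sum of 286 FPKM, against 49.8 to 67.1 FPKM in the rest of its group. Counts of apoptosis genes called are also given without single mice. The weighing of pro-apoptotic against anti-apoptotic genes is given only with all mice.

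Promoter windows of 300 bases, from 250 bases before to 50 bases after an annotated start, were held by RefSeq (GRCm38.p6) for 32 of the 36 genes, in 45 windows. They are shown for *Bok*, which had the largest log2 fold change of the genes in Ang II-treated *Plod1*-/- mice, for *Cycs*, which had the largest in Ang II-treated WT mice, and for *Fas*, the death receptor that fell in *Plod1*-/- mice. Both strands were searched for the AP-1 motif TGANTCA, the CRE motif TGACGTCA, and for the NF-kB and p53 motifs by their consensus. Capitals mark a match to one of these.
*Bok*, chr1:93685325-93685624, plus strand: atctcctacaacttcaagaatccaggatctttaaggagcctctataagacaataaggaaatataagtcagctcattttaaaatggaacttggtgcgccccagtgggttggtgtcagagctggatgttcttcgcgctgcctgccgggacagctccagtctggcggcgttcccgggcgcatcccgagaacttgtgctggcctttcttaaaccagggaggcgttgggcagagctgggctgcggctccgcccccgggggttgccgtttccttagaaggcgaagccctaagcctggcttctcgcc
*Cycs*, chr6:50566520-50566819, minus strand: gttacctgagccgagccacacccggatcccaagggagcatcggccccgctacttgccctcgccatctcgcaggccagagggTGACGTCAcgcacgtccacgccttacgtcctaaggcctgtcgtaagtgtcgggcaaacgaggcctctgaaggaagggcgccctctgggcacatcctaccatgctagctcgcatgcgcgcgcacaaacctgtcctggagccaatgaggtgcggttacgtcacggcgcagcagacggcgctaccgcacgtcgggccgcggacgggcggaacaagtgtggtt
*Fas*, chr19:34290409-34290708, plus strand: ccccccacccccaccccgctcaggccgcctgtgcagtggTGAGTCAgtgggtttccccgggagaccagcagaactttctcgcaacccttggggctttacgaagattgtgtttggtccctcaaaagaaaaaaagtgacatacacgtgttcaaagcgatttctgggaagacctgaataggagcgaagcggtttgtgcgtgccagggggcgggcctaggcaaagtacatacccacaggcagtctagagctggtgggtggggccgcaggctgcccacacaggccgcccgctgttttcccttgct
The AP-1 motif was found in the window of 1 gene, *Fas*, and in 7.81% of all 32851 windows. The CRE motif was found for 2 genes, *Cycs* and *Birc2*, and in 1.79% of all windows. The NF-kB motif was found for 4 genes, *Bbc3*, *Bcl2l1*, *Bmf* and *Trp53*, and in 4.51% of all windows. The full p53 site, searched with no spacer and no deviating letter, was in none of the 45 windows and in 0.00913% of all. A pattern this rare cannot show that a gene lacks a p53 site. The *Bok* window held none of the motifs searched. These are matches of letters and show no binding.

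Over all 20 mice the mean level ran from 226 FPKM for *Tnfrsf12a*, the receptor of the cytokine TWEAK, to 0.900 FPKM for *Pmaip1*, which encodes NOXA. FPKM is a level per transcript length, so levels of different genes can be set side by side. Among the survival genes *Mcl1* (67.0 FPKM) and *Bcl2l1* (41.0 FPKM, encoding BCL-XL) were far above *Bcl2* (3.94 FPKM). Among the effectors *Bax* (22.6 FPKM) and *Bak1* (15.9 FPKM) were above *Bok* (8.34 FPKM). The tests used limma on values of log2(FPKM + 1). All fold changes below are on that scale, where changes of genes with a low FPKM come out too small. Genes with an adjusted p (Benjamini-Hochberg) below 0.05 over all genes tested are said to rise or fall, and those that also had a log2 fold change above 1 in size are counted as differentially expressed genes (DEGs). All tests were two-sided.

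**Figure D1:**
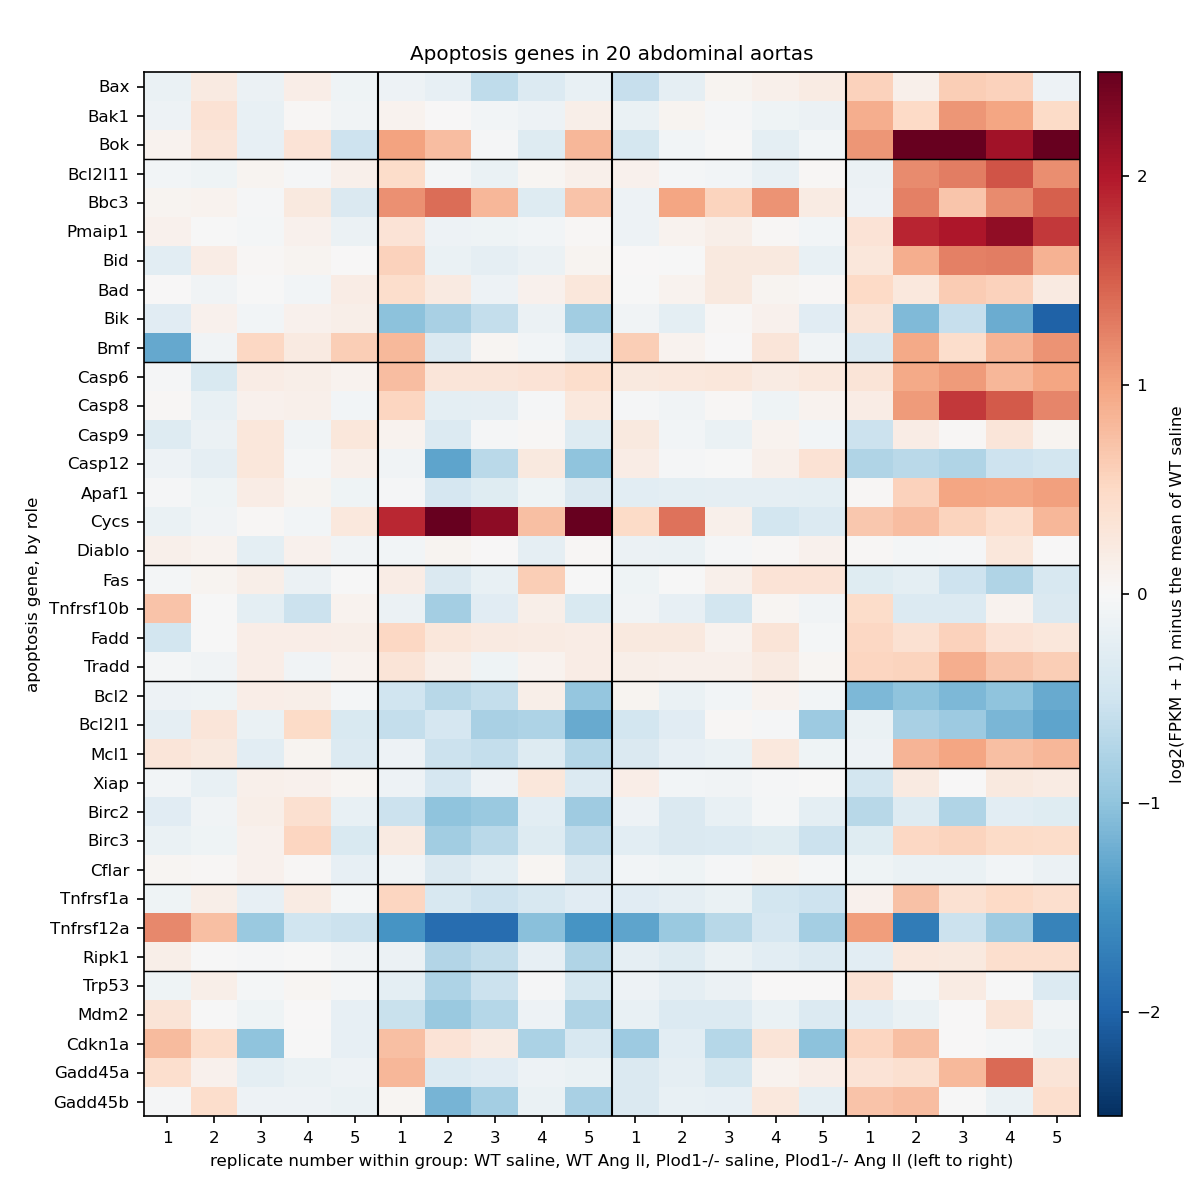
Level of the 36 apoptosis genes (rows, ordered by role, with lines between roles) in each of the 20 mice (columns, replicates 1 to 5 of the 4 groups from left to right). Colour gives log2(FPKM + 1) minus the mean of the saline-treated WT mice, values beyond the ends of the scale take the end colours, and *Bok* and *Pmaip1* are deep red in Ang II-treated *Plod1*-/- replicates 2 to 5, while *Cycs* is deep red in Ang II-treated WT mice.

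Under Ang II, *Bok*, *Casp8*, *Bak1* and *Bid*, which promote apoptosis, rose, as did *Mcl1* and *Birc3*, which oppose it, while *Bcl2*, *Casp12* and *Fas* fell, all in *Plod1*-/- mice. Of 34 apoptosis genes tested in this comparison, 13 rose and 3 fell, where 23.8% of all 12333 genes rose and 20.1% fell (43.8% in either direction). In all, 16 of 34 were called, or 47.1%, which is near that share, with 38.2% that rose and 8.82% that fell. Among these, 2 genes with higher expression were DEGs, *Bok* and *Casp8*, against 8.38% of all genes, and 1 with lower expression was a DEG, *Bcl2*, against 5.51%. The median log2 fold change was 0.38 over the apoptosis genes and 0.05 over all genes tested. The values of both groups did not overlap in 9 genes with higher expression, against 14.2% of all genes, and in 3 with lower expression, against 15.0%. Since the aorta was measured whole, fewer cells of a type and less RNA per cell cannot be told apart.

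Of the 3 effectors, *Bok* and *Bak1* rose. *Bok* (chr1:93685660-93695764), a BAX-like protein, was at 2.23, 3.20, 3.39, 2.72 and 3.22 FPKM in saline-treated *Plod1*-/- replicates 1 to 5 and at 8.51, 24.4, 30.3, 17.8 and 26.1 FPKM in Ang II-treated replicates 1 to 5. Every Ang II-treated mouse was above every saline-treated mouse, and replicate 1 was the lowest of its group. The log2 fold change was 2.40 (SE 0.28, adjusted p = 1.42e-04). *Bak1*, which encodes the effector BAK, rose by 0.87 (SE 0.13, adjusted p = 5.48e-04), from 11.7 to 13.9 FPKM to 19.0 to 29.6 FPKM. *Bak1* overlaps *Ggnbp1* on the other strand, which reached 3.07 FPKM, and the libraries did not keep the strand. *Bax* (chr7:45461697-45466898) was at 14.5, 18.7, 23.1, 24.3 and 25.6 FPKM under saline and at 33.3, 24.2, 34.2, 33.5 and 20.0 FPKM under Ang II, so that replicates 2 and 5 lay within the saline range. The log2 fold change of *Bax* was 0.43 (SE 0.19, adjusted p = 0.0916), which did not pass.

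Of the 5 BH3-only genes tested, *Bid*, whose protein links caspase 8 to the mitochondria, rose by 0.86 (adjusted p = 0.00379) and *Bad*, a partner of BCL-XL, by 0.35 (adjusted p = 0.0192). *Bad* lost its call without Ang II-treated *Plod1*-/- replicate 4, under quantile normalization and without both libraries with *Xist* RNA (adjusted p of up to 0.0709 over all alternatives), and it overlaps *Gpr137*, which reached 28.9 FPKM, on the other strand. *Bid* overlaps *Bcl2l13* and *Gm17812* on the other strand, which reached up to 7.24 FPKM, above the 5.33 FPKM that *Bid* reached in any mouse. *Bik*, *Bmf* and *Bbc3* (PUMA) had log2 fold changes of -0.82, 0.42 and 0.36 and did not pass. *Pmaip1* and *Bcl2l11* were below the filter on low values (at least 1 FPKM in at least 5 of the 10 mice), since 4 Ang II-treated and no saline-treated *Plod1*-/- mice reached 1 FPKM. *Pmaip1* was at 0.0796, 0.254, 0.302, 0.199 and 0.121 FPKM under saline and at 0.494, 3.42, 3.76, 4.46 and 3.02 FPKM under Ang II. The groups did not overlap, but replicate 1 was close to the saline-treated mice while replicates 2 to 5 were all above 3. *Bcl2l11*, encoding BIM, was at 0.686, 0.520, 0.493, 0.389 and 0.600 FPKM under saline and at 0.426, 2.59, 2.83, 3.68 and 2.54 FPKM under Ang II, with replicate 1 inside the saline range. On the log2 scale *Pmaip1* differed by 1.64 (exact permutation test, p = 0.00794, the smallest that 5 against 5 mice can give) and *Bcl2l11* by 1.05 (exact permutation test, p = 0.0397), 2 of 7 such tests on single genes below the filter. With no filter, over 38919 genes, limma gave adjusted p-values of 0.00604 for *Pmaip1* and 0.0299 for *Bcl2l11*.

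Of the 7 genes of the caspases and the apoptosome, 3 rose and 1 fell. *Casp8* (chr1:58795374-58847503), the initiator caspase of death receptors, was at 6.25, 6.04, 6.58, 5.90 and 6.87 FPKM under saline and at 7.47, 14.6, 24.3, 20.6 and 16.3 FPKM under Ang II. All Ang II-treated mice were above the saline range, replicate 1 only just. The log2 fold change was 1.18 (SE 0.25, adjusted p = 0.00324). *Apaf1* (chr10:90989311-91082770), the scaffold of the apoptosome, was at 0.871, 0.888, 0.928, 0.924 and 0.885 FPKM under saline and at 1.29, 2.32, 3.46, 3.41 and 3.54 FPKM under Ang II, with a log2 fold change of 0.96. It passed the filter only through the Ang II-treated mice, so its call is no support. Leaving it out, 12 of 33 apoptosis genes rose, 2 of them among the 6 of this group. *Apaf1* fell below the filter when any of the 5 Ang II-treated mice was left out, replicate 1 included. With no filter limma gave *Apaf1* an adjusted p of 0.00636. *Casp6*, an executioner caspase, rose by 0.58 (adjusted p = 0.00566). *Casp12*, a caspase of the endoplasmic reticulum, fell from 16.3 to 21.8 FPKM to 9.47 to 11.9 FPKM, a log2 fold change of -0.76 (SE 0.10, adjusted p = 3.32e-04). *Diablo* (0.09) and *Cycs* (0.41) did not pass, nor did *Casp9* (adjusted p = 0.998). *Cycs* was at 31.9, 59.5, 24.7, 16.1 and 17.5 FPKM under saline and at 36.6, 39.1, 33.4, 30.4 and 40.5 FPKM under Ang II. Saline-treated replicate 2 was above every Ang II-treated mouse for *Cycs*.

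Death receptors and their adaptors did not move together. *Fas* fell from 26.6 to 36.5 FPKM to 16.5 to 24.0 FPKM, a log2 fold change of -0.58 (SE 0.13, adjusted p = 0.00453), with no overlap of the groups. *Tradd*, an adaptor of TNF receptors, rose by 0.53 (adjusted p = 9.87e-04), from 8.13 to 9.21 FPKM to 11.8 to 15.4 FPKM. *Fadd*, the adaptor of FAS, and *Tnfrsf10b*, the mouse TRAIL receptor, had log2 fold changes of 0.24 (adjusted p = 0.0713) and 0.06 (adjusted p = 0.816). Beside them, *Tnfrsf1a*, the main TNF receptor, rose by 0.76 (adjusted p = 0.00114) and *Ripk1*, the kinase downstream of it, by 0.47 (adjusted p = 0.0141). *Ripk1* overlaps *Serpinb6a* and *Gm17083* on the other strand, which reached up to 54.9 FPKM.

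The genes that oppose apoptosis split. *Bcl2* (chr1:106538178-106714274) was at 5.51, 4.52, 4.95, 5.59 and 4.94 FPKM under saline and at 1.86, 2.11, 1.85, 2.09 and 1.61 FPKM under Ang II. No value overlapped, and all 5 Ang II-treated mice, replicate 1 included, were within 1.61 to 2.11 FPKM. The log2 fold change was -1.07 (SE 0.087, adjusted p = 2.94e-05), and it ran from -1.38 to -1.03 over the 18 alternatives, in each of which *Bcl2* was a DEG. *Mcl1* (chr3:95658788-95663176) moved the other way. It was at 47.8, 53.4, 55.0, 74.6 and 57.6 FPKM under saline and at 56.7, 113, 124, 105 and 111 FPKM under Ang II, with replicate 1 within the saline range and the other 4 above it. The log2 fold change of *Mcl1* was 0.78 (SE 0.21, adjusted p = 0.0124). *Birc3* (chr9:7848699-7873186), encoding the inhibitor cIAP2, was at 4.09, 3.77, 3.85, 3.93 and 3.22 FPKM under saline and at 3.92, 7.80, 8.01, 7.51 and 7.40 FPKM under Ang II, where again only replicate 1 was within the saline range. It rose by 0.70 (SE 0.16, adjusted p = 0.00552). *Bcl2l1*, *Birc2*, *Cflar* (FLIP) and *Xiap* had log2 fold changes of -0.54, -0.27, -0.09 and 0.05 and did not pass.

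Of the 5 genes of p53 and stress arrest, *Gadd45a*, a sensor of stress that slows the cell cycle, rose by 0.81 (adjusted p = 0.0127), with 1.23 to 2.41 FPKM under saline and 2.81 to 7.17 FPKM under Ang II. *Cdkn1a*, encoding the cell cycle inhibitor p21, had a log2 fold change of 0.74 (adjusted p = 0.0507), *Gadd45b* (chr10:80930073-80932204) of 0.49 (adjusted p = 0.0668), *Mdm2* of 0.23 (adjusted p = 0.125) and *Trp53* of 0.13 (adjusted p = 0.463). *Gadd45b* was at 24.0, 27.4, 27.2, 37.7 and 26.3 FPKM under saline and at 52.2, 54.3, 31.1, 28.0 and 42.0 FPKM under Ang II, with saline-treated replicate 4 above the lowest 2 Ang II-treated mice.

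Without Ang II-treated *Plod1*-/- replicate 1, 14 apoptosis genes rose and 5 fell in *Plod1*-/- mice, 5 of them DEGs: *Bok* (2.68), *Casp8* (1.42), *Bid* (1.02), *Bcl2* (-1.07) and *Bik* (-1.13). *Bik* and *Bcl2l1* (-0.72), which did not pass with all 10 mice, fell in that fit. Quantile normalization gave 12 genes that rose and 5 that fell.

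**Figure D2:**
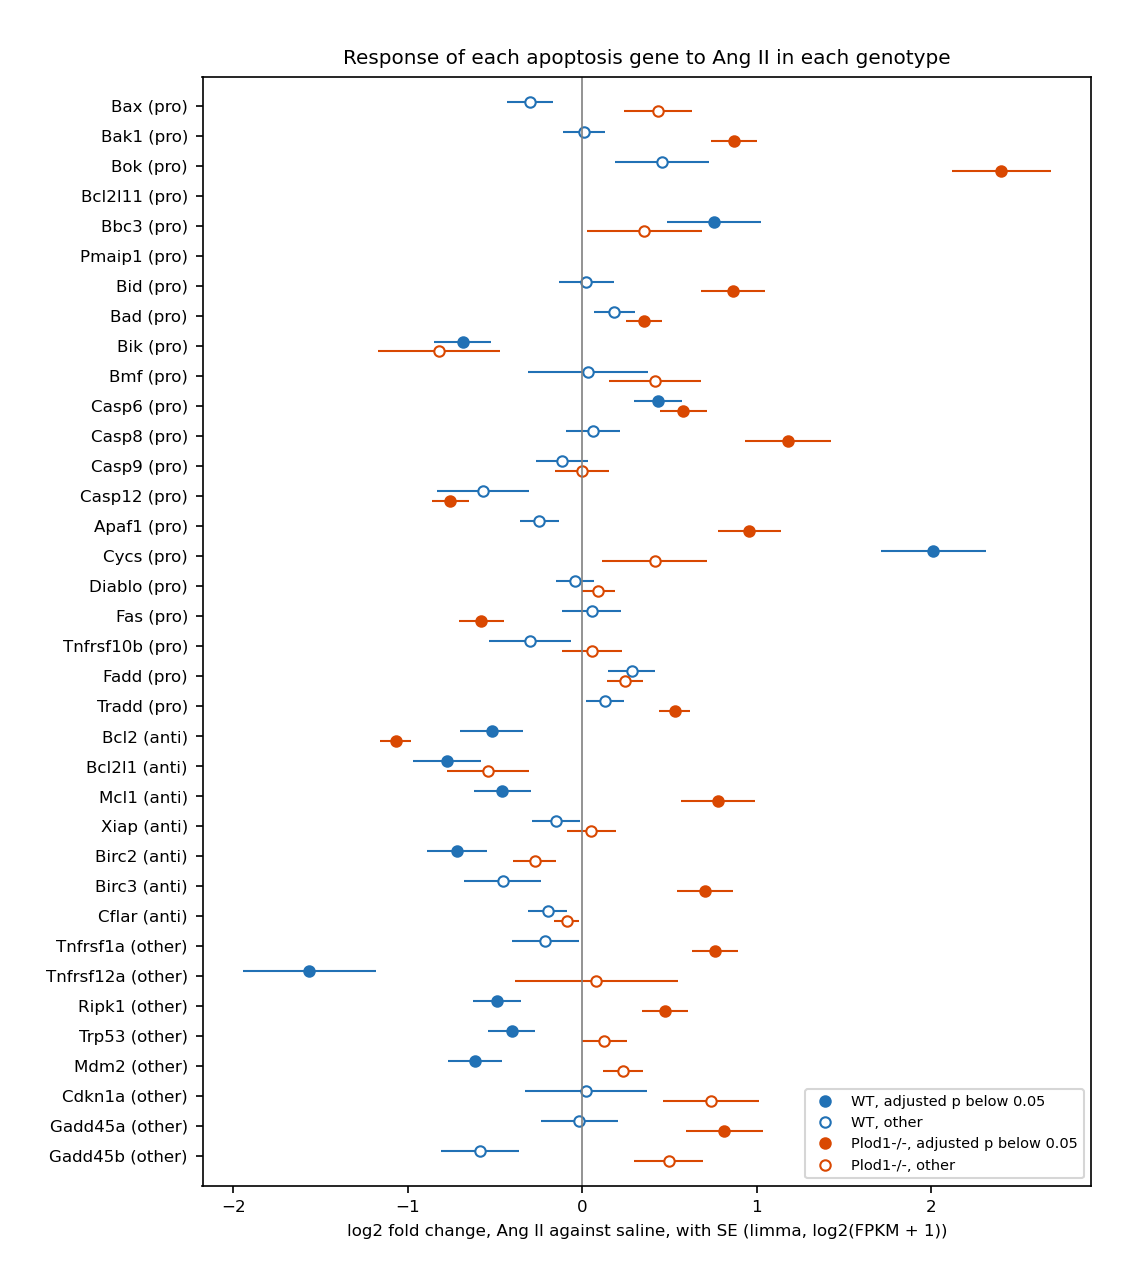
Log2 fold change of each apoptosis gene between Ang II and saline, on log2(FPKM + 1) with its SE, in WT mice (blue) and *Plod1*-/- mice (orange); filled points had an adjusted p below 0.05 and the side of each gene stands in brackets. *Pmaip1* and *Bcl2l11* were below the filter and have no point; *Bok* (2.40) lies farthest right in *Plod1*-/- mice and *Cycs* (2.01) in WT mice.

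In WT mice under Ang II, *Cycs* rose and *Tnfrsf12a*, *Birc2*, *Bcl2l1* and *Mdm2* fell, among others. Of 34 apoptosis genes tested, 3 rose and 9 fell, where 16.5% of all 11994 genes rose and 21.5% fell (38.0% in either direction). In all, 12 of 34 were called, or 35.3%, which is near that share, with 8.82% that rose and 26.5% that fell. The median log2 fold change was -0.17 over the apoptosis genes and -0.14 over all genes tested. The DEGs were *Cycs*, with higher expression (6.38% of all genes), and *Tnfrsf12a*, with lower expression (2.28%), and 8.66% of all genes were DEGs. The groups did not overlap in 3 genes with higher expression (10.4% of all genes) and in 3 with lower expression (6.88%).

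*Cycs* (chr6:50562563-50566538), encoding cytochrome c, which serves respiration in every cell as well as the apoptosome, was at 20.0, 21.2, 23.1, 21.5 and 27.3 FPKM in saline-treated WT replicates 1 to 5 and at 85.7, 146, 110.4, 38.6 and 134 FPKM in Ang II-treated replicates 1 to 5. All Ang II-treated mice were above the saline range, and replicate 4 was the lowest. The log2 fold change of *Cycs* was 2.01 (SE 0.30, adjusted p = 0.00188). The summed level of adipocyte markers (*Adipoq*, *Plin1*, *Cidec*, *Ucp1* and *Cidea*) moved with it, from 23.9 to 361 FPKM under saline to 619.5 to 3852 FPKM under Ang II, lowest in replicate 4. All 5 adipocyte markers rose, and none was below 1 FPKM throughout a group. Skeletal muscle markers summed to 3.54 to 6.38 FPKM under saline and 2.65 to 257 FPKM under Ang II, and 3 of the 4 rose. Mitochondrial genes took a median of 9.92% of the FPKM sum in saline-treated and 24.5% in Ang II-treated WT mice. The part of these in the level of *Cycs* was not tested, and *Cycs* also has near-identical pseudogene copies that could share its reads.

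*Tnfrsf12a* (chr17:23675445-23677468) was at 726, 532, 165, 221 and 215 FPKM in saline-treated and at 112, 83.0, 83.3, 151 and 112 FPKM in Ang II-treated WT mice. The groups did not overlap, and saline-treated replicates 1 and 2 were far above the rest. It fell, with a log2 fold change of -1.56 (SE 0.38, adjusted p = 0.0110). All 7 genes that oppose apoptosis had a negative fold change in WT mice, and 4 of them fell: *Birc2* (-0.72, adjusted p = 0.0108), *Bcl2l1* (-0.78, adjusted p = 0.0128), *Bcl2* (-0.52, adjusted p = 0.0417) and *Mcl1* (-0.46, adjusted p = 0.0442). *Bcl2* was at 4.67, 4.75, 5.96, 5.85 and 5.04 FPKM under saline and at 3.39, 2.85, 3.14, 5.92 and 2.19 FPKM under Ang II, with replicate 4 inside the saline range and the other 4 below it. *Mcl1* was at 77.1, 73.3, 51.3, 65.4 and 48.6 FPKM under saline and at 56.9, 42.6, 40.9, 49.2 and 37.3 FPKM under Ang II. *Bcl2* kept its call in 1 of 10 fits without a single mouse and *Mcl1* in 4 of 10, so both calls lie near the threshold and are weak.

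Of the 5 genes of p53 and stress arrest 2 fell in WT mice, and so did *Ripk1*, with log2 fold changes of -0.62 (adjusted p = 0.0131) for *Mdm2*, the inhibitor of p53, -0.40 (adjusted p = 0.0363) for *Trp53* itself and -0.49 (adjusted p = 0.0200) for *Ripk1*. Among genes that promote apoptosis *Casp6* rose by 0.43 (adjusted p = 0.0300), *Bbc3* rose by 0.75 (adjusted p = 0.0467) and *Bik* fell by 0.69 (adjusted p = 0.00990). *Trp53* kept its call in 3 of 10 fits without a single mouse, *Bbc3* in 1 of 10 and *Casp6* in 6 of 10. *Bok* was at 3.66, 4.46, 2.80, 4.57 and 2.09 FPKM under saline and at 7.91, 6.55, 3.30, 2.54 and 6.88 FPKM under Ang II, which is a log2 fold change of 0.46 (SE 0.27, adjusted p = 0.191). *Casp8* was at 6.61, 5.51, 6.97, 7.08 and 6.11 FPKM under saline and at 9.74, 5.30, 5.38, 6.30 and 7.96 FPKM under Ang II, which is a log2 fold change of 0.06 (SE 0.15, adjusted p = 0.757). The groups overlapped for both. *Apaf1* was at 1.20, 1.07, 1.54, 1.35 and 1.08 FPKM under saline and at 1.20, 0.676, 0.808, 1.08 and 0.740 FPKM under Ang II (-0.25, adjusted p = 0.0971), and *Bax* at 19.7, 26.1, 19.7, 24.9 and 20.5 and 20.0, 19.0, 13.8, 17.1 and 19.2 FPKM (-0.30, adjusted p = 0.0837). *Birc3* was at 4.43, 4.65, 5.60, 7.91 and 3.71 FPKM under saline and at 6.15, 2.37, 2.83, 3.85 and 2.88 FPKM under Ang II (-0.46, adjusted p = 0.116), and *Gadd45b* at 30.5, 43.0, 28.7, 28.8 and 27.9 and 32.3, 13.5, 17.1, 27.9 and 17.4 FPKM (-0.59, adjusted p = 0.0574). Of these 6 genes, none passed. *Pmaip1* stayed within 0.0593 to 0.274 FPKM under saline and 0.0804 to 0.487 FPKM under Ang II, and *Bcl2l11* within 0.456 to 0.723 FPKM and 0.411 to 1.16 FPKM.

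Without Ang II-treated WT replicate 4, 4 apoptosis genes rose and 12 fell in WT mice. Without Ang II-treated WT replicate 1, 1 rose and 11 fell. The number that fell was 5 without Ang II-treated replicate 2, 3 or 5, and the number that rose was 1 without Ang II-treated replicate 1 or 5 or saline-treated replicate 1 or 2.

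**Figure D3:**
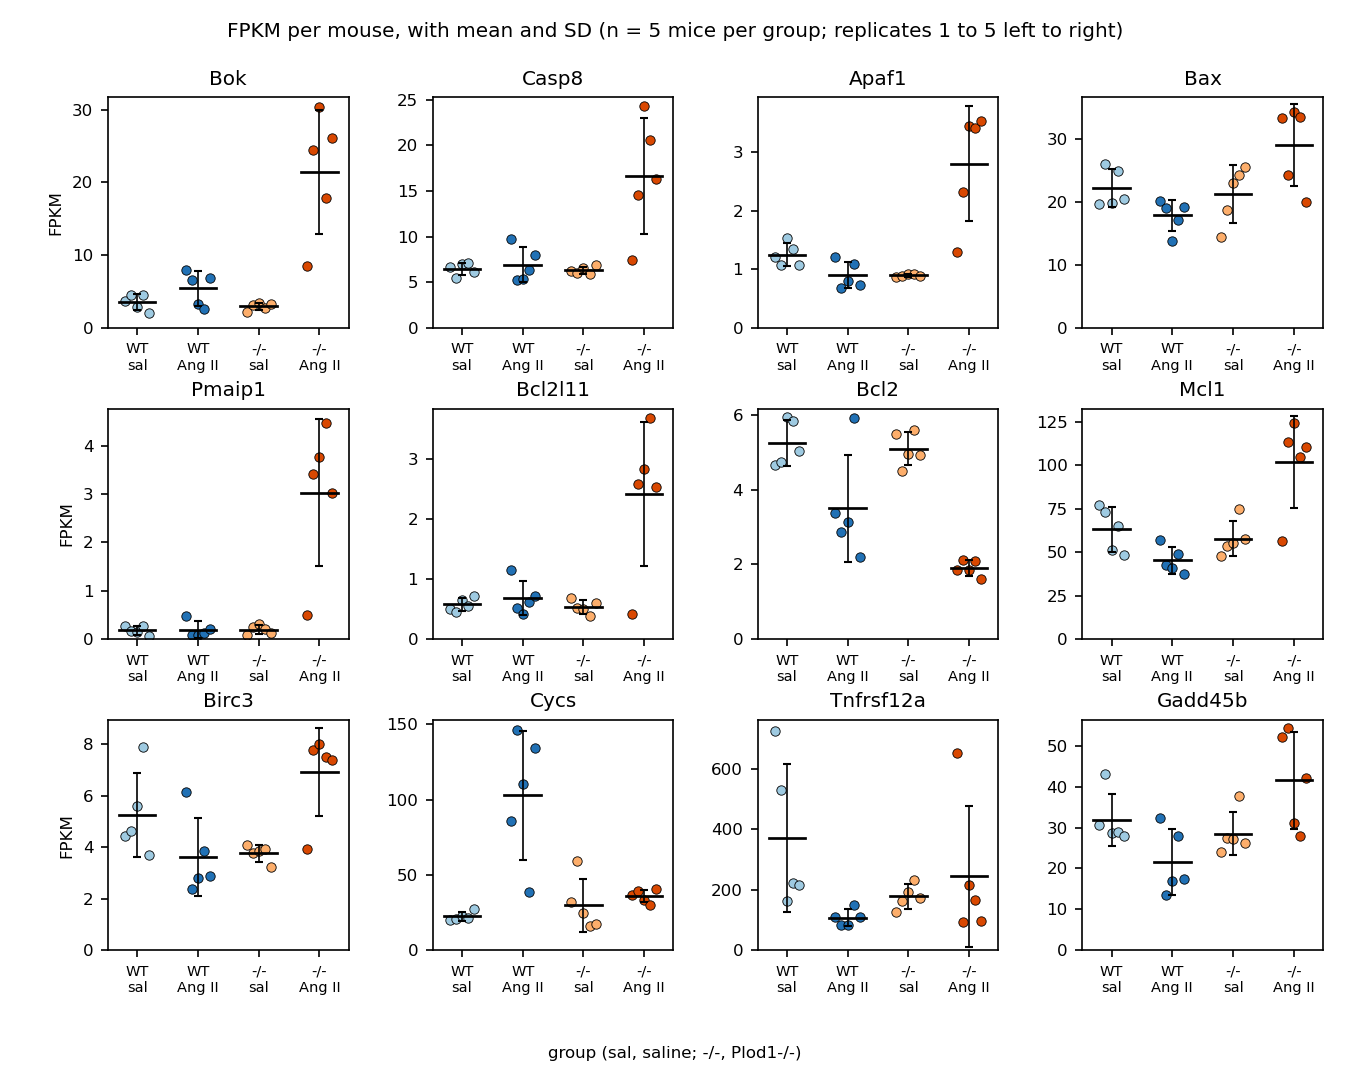
FPKM of 12 apoptosis genes in every mouse, with the mean (line) and SD (bar) of each group of 5, on linear axes that start at 0. Ang II-treated *Plod1*-/- replicate 1, the leftmost point of the last group, is the lowest of its group for *Bok* (8.51 FPKM), *Casp8* (7.47 FPKM) and *Mcl1* (56.7 FPKM), and all 5 mice of that group are low for *Bcl2*.

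Set directly against Ang II-treated WT mice, Ang II-treated *Plod1*-/- mice had higher levels of all 3 effectors, of *Casp8*, *Apaf1* and *Bid*, and also of the survival genes *Mcl1* and *Birc3*. Of 35 apoptosis genes tested, 14 were higher and 2 lower, where 20.8% of all 12356 genes were higher and 10.4% lower (31.2% in either direction). With weights per mouse the number higher was 23, and without a single mouse it was as low as 8. Replicate number as a block also lowered it, and *Bax*, *Bid*, *Casp8*, *Tradd* and *Ripk1* were among those that lost their call there. The DEGs were *Bok*, *Casp8* and *Mcl1*, with higher expression (7.45% of all genes), and *Cycs*, with lower expression (3.67%). The median log2 fold change was 0.44 over the apoptosis genes and 0.12 over all genes tested. The groups did not overlap in 4 genes with higher expression, *Bak1*, *Bok*, *Apaf1* and *Tradd* (10.4% of all genes), and in 1 with lower expression, *Bcl2* (4.62%). This comparison shares its Ang II-treated *Plod1*-/- mice with the response above.

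*Bok* had a log2 fold change of 1.78 (SE 0.36, adjusted p = 0.00620) between the Ang II-treated genotypes, against 2.40 in the response of *Plod1*-/- mice. The lowest *Plod1*-/- mouse (8.51 FPKM) was next to the highest WT mouse (7.91 FPKM), and both are replicate 1. *Bak1* was higher by 0.78 (SE 0.15, adjusted p = 0.00454), and *Bax* by 0.65 (SE 0.17, adjusted p = 0.0180). *Bax* overlapped by little, with 13.8 to 20.0 FPKM in WT and 20.0 to 34.2 FPKM in *Plod1*-/- mice. *Casp8* was higher by 1.09 (SE 0.28, adjusted p = 0.0149), *Apaf1* by 0.96 (SE 0.19, adjusted p = 0.00651), *Bid* by 0.90 (adjusted p = 0.0117) and *Tradd* by 0.53 (adjusted p = 0.00953). *Bcl2l11* was higher by 0.93 (adjusted p = 0.0292), but passed the filter through 4 *Plod1*-/- mice and 1 WT mouse and missed the threshold when no gene was filtered (adjusted p = 0.0844). *Pmaip1*, below the filter, differed by 1.64 (exact permutation test, p = 0.00794), although its lowest *Plod1*-/- mouse (0.494 FPKM) and its highest WT mouse (0.487 FPKM) were nearly level.

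Among the survival genes, *Mcl1* was higher by 1.12 (SE 0.22, adjusted p = 0.00534), *Birc3* by 0.80 (adjusted p = 0.0250), and *Bcl2* was lower, with a log2 fold change of -0.58 (SE 0.18, adjusted p = 0.0344). *Bcl2* had no WT value below 2.19 FPKM and no *Plod1*-/- value above 2.11 FPKM. *Cycs* had a log2 fold change of -1.36 (SE 0.31, adjusted p = 0.0100), with 30.4 to 40.5 FPKM in *Plod1*-/- mice against 38.6 to 146 FPKM in WT mice, where 4 of 5 WT mice were above all *Plod1*-/- mice. In this comparison 2 of the 5 adipocyte markers were lower in *Plod1*-/- mice, at 217 to 2072 FPKM in sum, and the part of these in *Cycs* was not tested. On neither side, *Ripk1* (0.70, adjusted p = 0.0149), *Gadd45b* (0.93, adjusted p = 0.0233), *Mdm2* (0.57, adjusted p = 0.0266) and *Tnfrsf1a* (0.64, adjusted p = 0.0413) were higher. With mitochondrial genes left out, *Mdm2* and *Tnfrsf1a* lost their calls. Mitochondrial genes took a median of 24.5% of the FPKM sum in WT and 11.9% in *Plod1*-/- mice given Ang II. *Tnfrsf12a* was at 651, 92.7, 217, 168 and 97.4 FPKM in Ang II-treated *Plod1*-/- mice, where replicate 1 was the highest, and did not pass (0.80, adjusted p = 0.206).

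Without Ang II-treated *Plod1*-/- replicate 1 the counts were 16 higher and 2 lower with 7 DEGs, which added *Apaf1* (1.13), *Bcl2l11* (1.22) and *Bid* (1.06) to the 4 above. Without Ang II-treated WT replicate 1 they were 15 higher and 1 lower with 7 DEGs. The number higher was 9, 8 and 9 without Ang II-treated WT replicates 2, 3 and 5 and 9 without Ang II-treated *Plod1*-/- replicate 4, and *Bcl2* kept its call in 4 of 10 fits without a single mouse, *Birc3* in 4 of 10, *Mdm2* in 5 of 10 and *Tnfrsf1a* in 2 of 10. *Bax* kept it in 8 of 10 and *Gadd45b* in 7 of 10. *Bcl2l11* kept its call in 2 of the 5 such fits in which it was tested. *Bak1*, *Bok*, *Apaf1*, *Mcl1* and *Cycs* kept theirs in all fits tried.

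Whether the response to Ang II differed between the genotypes was tested by the interaction of genotype and treatment over all 20 mice. Of 35 apoptosis genes, 16 had a response that was more positive in *Plod1*-/- mice and 3 one that was more negative, where these shares were 23.8% and 14.1% of all 13263 genes (37.8% in all). With a difference above 1 in size there were 7 and 1 genes, against 9.69% and 6.36% of all genes. Those above 1 in size were *Bok* (1.95, SE 0.41, adjusted p = 0.00175), *Tnfrsf12a* (1.64, SE 0.64, adjusted p = 0.0496), *Cycs* (-1.60, SE 0.45, adjusted p = 0.0104), *Mcl1* (1.24, SE 0.27, adjusted p = 0.00221), *Apaf1* (1.20, SE 0.21, adjusted p = 4.79e-04), *Birc3* (1.16, SE 0.29, adjusted p = 0.00461), *Casp8* (1.12, SE 0.30, adjusted p = 0.00773) and *Gadd45b* (1.08, SE 0.31, adjusted p = 0.0121). *Mcl1* fell in WT mice and rose in *Plod1*-/- mice, and so did *Ripk1*, with a difference of 0.96. *Bcl2l11* lost its call there when no gene was filtered (adjusted p = 0.0514). *Tnfrsf12a* kept this call in 6 of 20 fits without a single mouse. *Bcl2* fell in both genotypes, and the difference of -0.55 (SE 0.20, adjusted p = 0.0409) kept its call in 9 of 20 such fits. Without Ang II-treated *Plod1*-/- replicate 1, 15 genes were more positive and 3 more negative, with 10 above 1 in size. *Bcl2l11* (1.26), *Bid* (1.00), *Tnfrsf1a* (1.05) and *Ripk1* (1.08) then came above 1, *Gadd45b* (0.99) came below it, *Tnfrsf12a* (1.19, adjusted p = 0.0690) and *Trp53* (0.45, adjusted p = 0.0520) lost their calls, and *Gadd45a* (0.91, adjusted p = 0.0352) gained one.

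Under saline the genotypes differed in 1 of the 34 apoptosis genes tested. With limma, none was higher and 1 lower in *Plod1*-/- mice, where 3.33% of all 11999 genes were higher and 3.23% lower, and none was a DEG (0.358% and 0.408% of all genes, 0.767% in all). At an unadjusted p below 0.05 there were 2 higher and 6 lower. *Ripk1* had a log2 fold change of -0.26 (SE 0.069, adjusted p = 0.0497), with 3.74 to 4.55 FPKM in WT and 2.98 to 3.48 FPKM in *Plod1*-/- mice, and it lost that call in each of the 10 fits without a single mouse. *Apaf1* did not overlap between the saline-treated groups either (1.07 to 1.54 FPKM and 0.871 to 0.928 FPKM), but passed the filter only through the WT mice and did not pass the test (-0.24, adjusted p = 0.0884). *Casp6* was the third gene without overlap (0.25, adjusted p = 0.159), and such genes made up 4.22% of all genes with higher and 5.30% with lower expression. *Bok* (-0.17), *Casp8* (-0.02), *Bax* (-0.08), *Bcl2* (-0.03) and *Mcl1* (-0.12) were among those that did not pass.

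Pro-apoptotic genes were then weighed against anti-apoptotic genes. In *Plod1*-/- mice under Ang II, 8 of 19 pro-apoptotic genes tested rose and 2 fell, with a median log2 fold change of 0.41, while of 7 anti-apoptotic genes 2 rose and 1 fell, with a median of -0.09 on that scale (0.05 over all genes). In WT mice 3 of 19 pro-apoptotic genes rose and 1 fell, with a median of 0.03, and with limma none of the 7 anti-apoptotic genes rose, also at an unadjusted p below 0.05, while 4 fell, with a median of -0.46 (-0.14 over all genes). Between the Ang II-treated genotypes 8 of 20 pro-apoptotic genes were higher and 1 lower in *Plod1*-/- mice (median 0.32), and 2 of 7 anti-apoptotic genes were higher and 1 lower (median 0.19, and 0.12 over all genes). In the interaction the medians of both sides were 0.26 and 0.23, with 8 and 2 genes more positive and 2 and 1 more negative in *Plod1*-/- mice. These counts stand against 23.8% of all genes that rose and 20.1% that fell in *Plod1*-/- mice, 16.5% and 21.5% in WT mice, and 20.8% higher and 10.4% lower between the Ang II-treated genotypes, so that the 3 of 19 that rose in WT mice are at the share of all genes. The 8 that rose in *Plod1*-/- mice include *Apaf1*, which passed the filter only through the Ang II-treated mice, so its call is no support. The 8 that were higher between the Ang II-treated genotypes include *Bcl2l11*, which passed it through 4 *Plod1*-/- mice and 1 WT mouse. The difference of both sides itself was not tested.

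In each mouse the mean log2(FPKM + 1) of all 21 pro-apoptotic and of all 7 anti-apoptotic genes was taken. The pro-apoptotic mean was 2.65 ± 0.063, 2.76 ± 0.15, 2.70 ± 0.046 and 3.19 ± 0.19 (SD, n = 5) in the saline and Ang II groups of WT mice and then of *Plod1*-/- mice. The anti-apoptotic mean was 3.73 ± 0.17, 3.26 ± 0.24, 3.57 ± 0.10 and 3.51 ± 0.13 in the same order. The pro-apoptotic mean minus the anti-apoptotic mean was -1.08 ± 0.16, -0.50 ± 0.23, -0.88 ± 0.090 and -0.32 ± 0.11. Its group mean was higher under Ang II in both genotypes, mostly with a lower anti-apoptotic mean in WT mice and a higher pro-apoptotic mean in *Plod1*-/- mice. Between the Ang II-treated genotypes the ranges of that difference overlapped, with -0.87 to -0.22 in WT and -0.43 to -0.19 in *Plod1*-/- mice. These means weigh each gene alike and are given as a description, with no test. The pro-apoptotic mean takes in *Pmaip1* and *Bcl2l11*, which were below the filter in the response of *Plod1*-/- mice. It also takes in *Apaf1*, which passed the filter there only through the Ang II-treated mice. *Cycs*, with the largest log2 fold change in Ang II-treated WT mice, is part of it too. The means were not taken without these genes.

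The balance of single pairs depended on the pair. *Bax* minus *Bcl2*, a difference of log2(FPKM + 1), was 3.58, 3.02, 3.63, 3.48 and 3.01 in Ang II-treated *Plod1*-/- replicates 1 to 5, above all other mice. It ran from 1.58 to 2.24 in saline-treated WT, 1.38 to 2.66 in Ang II-treated WT and 1.25 to 2.16 in saline-treated *Plod1*-/- mice. Replicate 1, whose *Mcl1* and *Pmaip1* were close to saline-treated mice, was among the highest here. *Bak1* minus *Mcl1*, the pair of an effector and the survival protein that holds it, was -2.01 ± 0.56 (SD, n = 5) in *Plod1*-/- mice given Ang II, -2.10 ± 0.26 in saline-treated *Plod1*-/- mice, -1.68 ± 0.27 in Ang II-treated WT mice and -2.14 ± 0.26 in saline-treated WT mice. Both *Bak1* and *Mcl1* rose in *Plod1*-/- mice, so their difference stayed within the spread of the saline-treated mice in all but replicate 1.

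**Figure D4:**
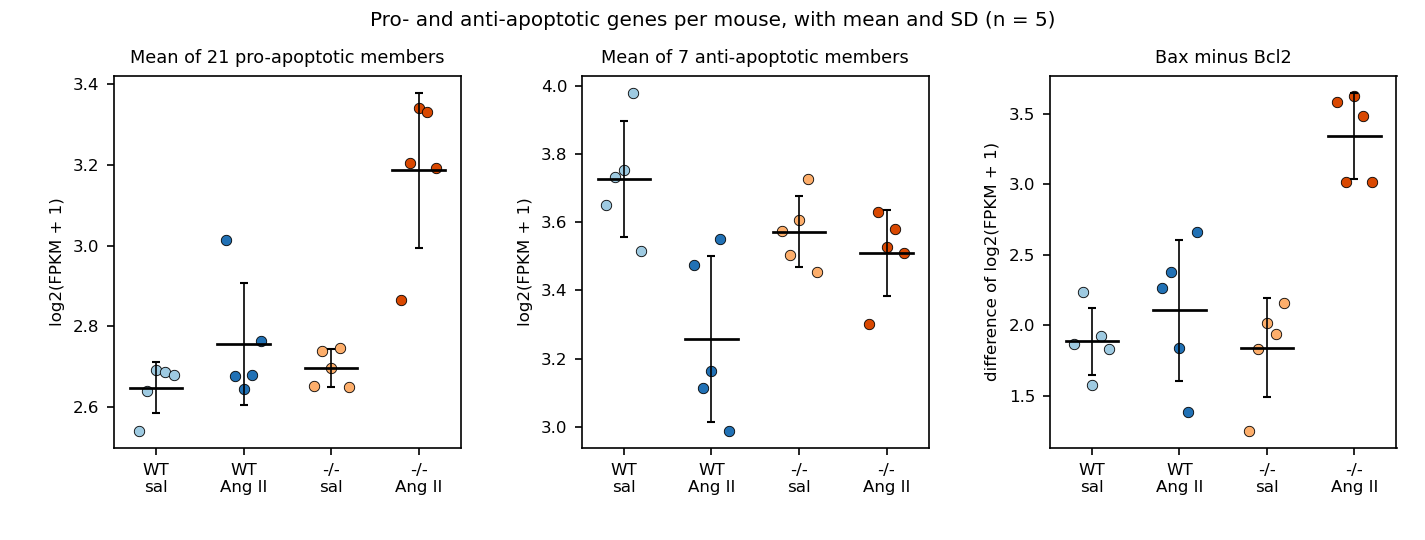
Mean log2(FPKM + 1) of the 21 pro-apoptotic genes (left) and the 7 anti-apoptotic genes (middle), and the difference of *Bax* and *Bcl2* (right), for each mouse with the mean and SD of the 4 groups of 5. The vertical axes do not start at 0; the *Bax* minus *Bcl2* points of Ang II-treated *Plod1*-/- mice, at 3.01 to 3.63, lie above all others.

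Other genes of cell death were read from lists of the pathways, to be set against the same shares of all genes. Of 29 further genes of the apoptosis machinery, 23 were tested in *Plod1*-/- mice, where 9 rose and 2 fell, and 20 in WT mice, where 3 rose and 2 fell. Between the Ang II-treated genotypes 6 of 23 were higher and none lower with limma (7 and 2 at an unadjusted p below 0.05). Under saline 20 were tested, so some of the 23 passed the filter only with the Ang II-treated *Plod1*-/- mice, and their calls are no support. In percent, 39.1% rose in *Plod1*-/- mice (23.8% of all genes), 15.0% in WT mice (16.5% of all genes), and 26.1% were higher between the Ang II-treated genotypes (20.8% of all genes). The 3 with the smallest p were *Birc5*, the survivin gene of dividing cells (2.39, SE 0.34, adjusted p = 0.00167), *Tnfrsf1b*, the second TNF receptor (1.97, SE 0.36, adjusted p = 0.00452), and *Pidd1*, a scaffold for caspase 2 (0.60, SE 0.12, adjusted p = 0.00661). *Birc5* was at 2.60 to 13.5 FPKM in Ang II-treated *Plod1*-/- mice and at 0.167 to 1.36 FPKM in Ang II-treated WT mice.

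Necroptosis and pyroptosis are lytic forms of cell death, and 7 of 8 of their genes tested rose in *Plod1*-/- mice with none that fell, 5 of them as DEGs, where 23.8% of all genes rose. In WT mice none of 6 passed with limma, and 1 had an unadjusted p below 0.05. Under saline 6 were tested, so some of the 8 passed the filter only with the Ang II-treated *Plod1*-/- mice. The calls of such genes are no support, also between the Ang II-treated genotypes. Between the Ang II-treated genotypes 5 of 8 were higher (20.8% of all genes), led by *Ripk3* (2.26, SE 0.35, adjusted p = 0.00223) and *Mlkl* (1.64, SE 0.30, adjusted p = 0.00424), the kinase and the executioner of necroptosis, and *Pycard* (0.97, SE 0.19, adjusted p = 0.00531), the inflammasome adaptor ASC. *Ripk3* was at 0.928 to 1.58 FPKM in saline-treated and at 7.46 to 23.4 FPKM in Ang II-treated *Plod1*-/- mice. Of 9 genes that NF-kB induces or that belong to it, 4 of 8 tested rose in *Plod1*-/- mice (23.8% of all genes) and none fell, none of 7 passed in WT mice (1 at an unadjusted p below 0.05), and 4 of 8 were higher between the Ang II-treated genotypes (20.8% of all genes), among them *Nfkb2* (0.82, adjusted p = 0.0168), *Tnfaip3* (0.73, adjusted p = 0.0297) and *Nfkbie* (0.92, adjusted p = 0.0339). Under saline 7 of the NF-kB genes were tested, so not all of their 8 passed the filter without the Ang II-treated *Plod1*-/- mice. Of 13 further targets of p53 tested, 3 rose (23.1%, against 23.8% of all genes) and 5 fell (38.5%, against 20.1%) in *Plod1*-/- mice. In WT mice 2 rose (15.4%, against 16.5%) and 3 fell (23.1%, against 21.5%). Of the same 13, 2 were higher between the Ang II-treated genotypes (15.4%, against 20.8%), *Btg2* (1.17, adjusted p = 0.0132) and *Plk2* (1.67, adjusted p = 0.0140), while *Phlda3* did not pass (-0.80, adjusted p = 0.0722).

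Markers of cell types moved with the same contrasts. All 6 smooth muscle markers fell in *Plod1*-/- mice under Ang II, from 15028 to 20704 FPKM in sum to 2297 to 16760.5 FPKM. All 6 macrophage markers rose, from 18.5 to 48.1 to 137 to 817 FPKM, and so did all 5 neutrophil markers tested of 6, from 1.35 to 3.02 to 156 to 723 FPKM. Of the neutrophil markers, 4 stayed below 1 FPKM in all saline-treated and 1 in all Ang II-treated *Plod1*-/- mice. Most of those tested thus passed the filter only through the Ang II-treated mice, and their calls are no support. The T cell markers were too low to be tested, with sums of at most 3.09 FPKM in Ang II-treated *Plod1*-/- mice. Fibroblast markers summed to 247 to 411 FPKM under saline and 589 to 3529.9 FPKM under Ang II, and 1 of 4 rose. In the same mice 3 of 3 erythroid, 1 of 4 endothelial and 1 of 5 adipocyte markers rose, and the 1 B cell and 3 skeletal muscle markers tested did not pass with limma, nor at an unadjusted p below 0.05. Between the Ang II-treated genotypes 6 of 6 macrophage, 5 of 5 neutrophil, 3 of 3 erythroid and 1 of 4 fibroblast markers were higher, and 2 of 6 smooth muscle and 2 of 4 skeletal muscle markers lower, in *Plod1*-/- mice. In WT mice 4 of 6 smooth muscle markers fell and 1 of 6 macrophage markers rose.

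Single mice varied along with these sums. Ang II-treated *Plod1*-/- replicate 1, with the lowest macrophage and the highest smooth muscle sum of its group, had the lowest *Bok*, *Casp8*, *Apaf1*, *Mcl1*, *Birc3*, *Pmaip1* and *Bcl2l11* of that group, while its *Bcl2* (1.86 FPKM) and *Bax* (33.3 FPKM) were within the range of the other 4. Its *Tnfrsf12a* was the highest of the group, and its *Gadd45b* was above the group median. For 10 of the 16 genes that rose or fell in *Plod1*-/- mice, replicate 1 was the Ang II-treated mouse nearest to the mean of the saline-treated group. Ang II-treated WT replicate 1, with the highest macrophage sum of its group, had the highest *Bok*, *Casp8*, *Apaf1*, *Mcl1*, *Birc3*, *Pmaip1*, *Bcl2l11* and *Gadd45b* of that group. For 12 of the 16 genes called between the Ang II-treated genotypes, this mouse was the WT mouse nearest to the mean of the *Plod1*-/- group. Which cells carried the transcripts was not measured, and the part of immune cells in the higher levels of *Bok*, *Casp8* and the other genes was not tested.

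**Figure D5:**
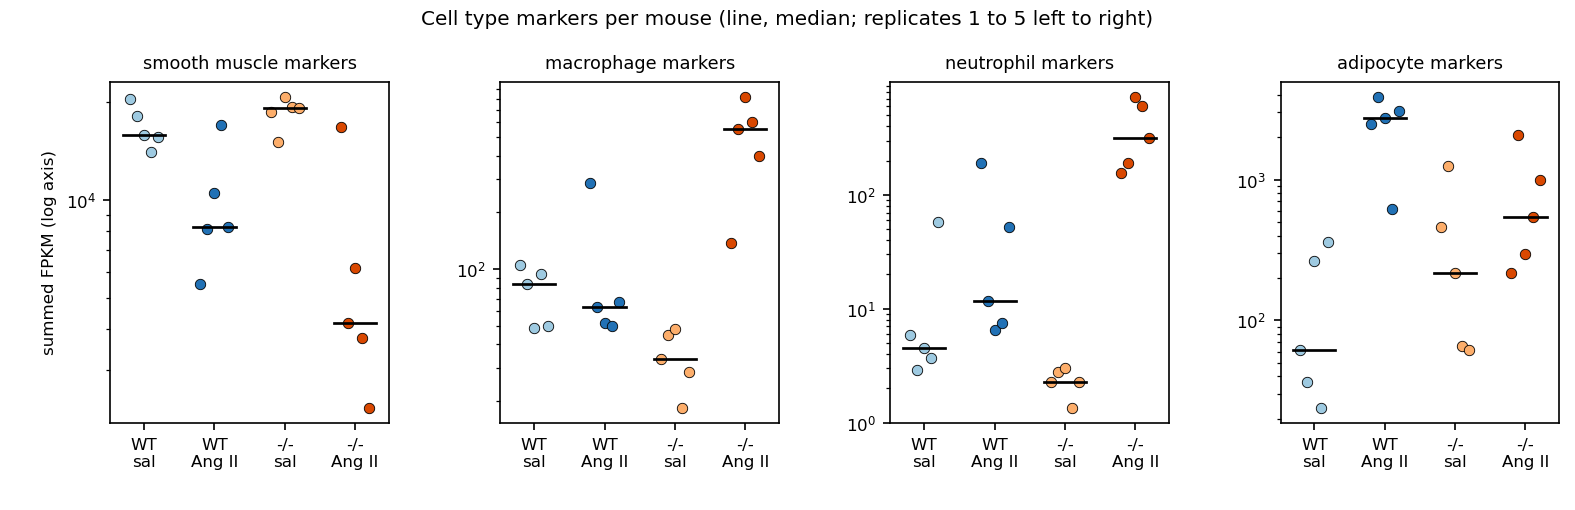
Summed FPKM of markers of smooth muscle cells, macrophages, neutrophils and adipocytes in each mouse (log axes; line, median of 5 mice; replicates 1 to 5 from left to right). In Ang II-treated *Plod1*-/- mice the leftmost point, replicate 1, has the highest smooth muscle sum (16760.5 FPKM) and the lowest macrophage sum (137 FPKM) of the group.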

How the data were processed

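RNA of the abdominal aorta of 20 mice was sequenced (Illumina, TruSeq RNA V2, which does not keep the strand). Per the methods of the study, ribosomal reads were taken out, HISAT2 made the alignments, and the authors computed FPKM values with stringtie, cuffquant and cuffnorm. The deposited files hold FPKM, not counts, for 43422 genes per mouse. The submitters' processing notes list HISAT2 2.1.0, Bowtie2 2.2.3 and HTSeq 0.6.0 and the build mm10, and their extraction text also names array labelling kits. The files give no depth, so counting intervals were not computed.

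Symbols came from GENCODE M21 (43285 genes matched). Values were analysed as log2(FPKM + 1) with R 4.3.3 and limma 3.58.1 (eBayes with a variance trend, Benjamini-Hochberg adjustment over all genes tested), which was first checked on simulated data; edgeR, named in the methods, needs counts and was not run. A comparison took in only its 10 mice, and genes at 1 FPKM or more in at least 5 of them, while the interaction took in all 20. Genes under this filter were compared singly by two-sided exact permutation tests. Figures were drawn with Python 3.11.15 and matplotlib 3.10.9. Replicates are mice with numbers from the labels, and the sources give no pairing. The apoptosis genes, the pathway and marker lists and the tests were chosen with earlier results of these data known, including the libraries with *Xist* RNA and the mitochondrial share. Values per mouse are given for each apoptosis gene that was a DEG in a comparison or in the interaction and for *Bax* and *Bcl2*; *Pmaip1* and *Bcl2l11* are given per mouse as genes below the filter. From each pathway list the 3 genes with the smallest p between the Ang II-treated genotypes are named, and examples of their levels were chosen after their values were seen. Alternatives were a pseudocount of 0.1, no filter, replicate number as a block, quantile normalization, weights per mouse, mitochondrial genes left out, all 4 groups in one fit, both libraries with *Xist* RNA left out, and each mouse left out in turn.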

Additional observations from a re-analysis of the deposited data

Results flagged for a closer look

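In 14 of 144 groups of 5 mice, 1 mouse lay farther from the rest than Dixon's critical value of 0.71 allows, while chance sets apart about 1 in 20 groups, or 7.2. Ang II-treated *Plod1*-/- replicate 1 was set apart by low values of 5 genes. These were *Bcl2l11* (0.426 FPKM, against 2.54 to 3.68 FPKM), *Pmaip1* (0.494 FPKM, against 3.02 to 4.46 FPKM), *Mcl1* (56.7 FPKM, against 105 to 124 FPKM), *Birc3* (3.92 FPKM, against 7.40 to 8.01 FPKM) and *Ripk1* (3.17 FPKM, against 4.93 to 5.77 FPKM), with the range of the other 4 mice in brackets. Ang II-treated WT replicate 1 was set apart by high values of *Casp6* (3.24 FPKM, against 2.06 to 2.34 FPKM), *Fadd* (3.26 FPKM, against 2.42 to 2.62 FPKM), *Tnfrsf1a* (148 FPKM, against 70.5 to 82.7 FPKM) and *Gadd45a* (4.41 FPKM, against 1.41 to 1.80 FPKM). The other 5 were *Diablo* in Ang II-treated *Plod1*-/- replicate 4 (6.42 FPKM, highest of its group, against 4.87 to 5.17 FPKM), *Fadd* in saline-treated WT replicate 1 (1.17 FPKM, lowest of its group, against 1.97 to 2.34 FPKM), *Cflar* in saline-treated WT replicate 5 (6.01 FPKM, lowest of its group, against 7.14 to 7.61 FPKM), *Gadd45b* in saline-treated WT replicate 2 (43.0 FPKM, highest of its group, against 27.9 to 30.5 FPKM) and *Gadd45b* in saline-treated *Plod1*-/- replicate 4 (37.7 FPKM, highest of its group, against 24.0 to 27.4 FPKM).

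The response to Ang II differed between the genotypes in 19 apoptosis genes, by limma's interaction term with an adjusted p below 0.05. As the log2 fold change in *Plod1*-/- mice minus that in WT mice, the difference was positive for *Bok* (1.95), *Tnfrsf12a* (1.64), *Mcl1* (1.24), *Apaf1* (1.20), *Birc3* (1.16), *Casp8* (1.12), *Gadd45b* (1.08), *Tnfrsf1a* (0.97), *Bcl2l11* (0.97), *Ripk1* (0.96), *Bak1* (0.86), *Mdm2* (0.85), *Bid* (0.84), *Bax* (0.73), *Trp53* (0.53) and *Tradd* (0.40). It was negative for *Cycs* (-1.60), *Fas* (-0.63) and *Bcl2* (-0.55). No cause of these differences was tested.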

How the results depend on the processing

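No direction of an apoptosis gene called in the report reversed: in refits of single genes 1119 values kept their call and 176 lost it. Refits in which a called gene fell below the filter, as for *Apaf1* and *Bcl2l11*, are in neither number. Without single mice, the genes that rose in *Plod1*-/- mice numbered 12 to 15, those that fell 3 to 5 and the DEGs 3 to 5, with 5 and 5 without Ang II-treated replicate 1. In WT mice 1 to 4 rose and 5 to 12 fell, with 2 to 3 DEGs. Between the Ang II-treated genotypes 8 to 16 were higher and 1 to 2 lower, with 4 to 7 DEGs. There, the 7 came without replicate 1 of either group, 8 or 9 higher without WT replicate 2, 3 or 5 or *Plod1*-/- replicate 4, and 1 lower without WT replicate 1 or 3 or *Plod1*-/- replicate 3, 4 or 5. Under saline none was lower (0 to 0). In the interaction 13 to 17 were more positive and 1 to 3 more negative, with 6 to 10 above 1 in size, and leaving out saline-treated *Plod1*-/- replicate 4 or 5 gave the 1.

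With a pseudocount of 0.1, which widens the change of low genes, the DEGs numbered 6 in *Plod1*-/- mice and 7 between the Ang II-treated genotypes, and 12 genes were above 1 in size in the interaction. With no filter, so that 38919 to 43086 genes were tested, there were 5 DEGs in *Plod1*-/- mice, 1 higher and 5 lower in WT mice, 1 lower between the Ang II-treated genotypes, 0 lower under saline and 1 more negative in the interaction. Weights per mouse gave 7 DEGs and 5 lower in *Plod1*-/- mice, 15 lower in WT mice, 23 higher, 3 lower and 9 DEGs between the Ang II-treated genotypes, and 14 above 1 in size and 2 more negative in the interaction. Quantile normalization gave 5 lower in *Plod1*-/- mice, 2 higher in WT mice, 3 lower between the Ang II-treated genotypes, 0 lower under saline and 5 above 1 in size in the interaction. It moved the median of all genes from 0.05 to -0.06 in *Plod1*-/- mice and from 0.12 to -0.03 between the Ang II-treated genotypes, with pro-apoptotic medians of 0.30 and 0.18 and anti-apoptotic ones of -0.21 and 0.03 there. Without mitochondrial genes 5 were lower in *Plod1*-/- mice and 0 lower under saline. Without both libraries with *Xist* RNA there were 7 DEGs between the Ang II-treated genotypes, 5 genes lower in *Plod1*-/- mice and 0 lower under saline. All 4 groups in one fit gave 0 lower under saline. The causes were not tested.

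Replicate numbers did not pair the mice: their deviations correlated above 0.1 in 1 or 2 of 5 pairs per comparison (r from -0.33 to 0.42). As a block they left 5 genes higher and 1 lower between the Ang II-treated genotypes, 0 lower under saline, and moved no other count by over 1.5 times. At most 2 of 5 mice correlated best with their own number.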
